A study of Mus musculus with 2 samples.

Results

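Cycling T cells are the T lymphocytes of these tumours that carried transcripts of the proliferation genes Mki67 and Top2a. The members were selected on 4 measured values per cell barcode. A member had at least 2 unique molecular identifiers (UMIs, each 1 captured transcript) of Cd3d, Cd3e and Cd3g together and at least 2 of Mki67 and Top2a together. Its C1qa, C1qb and C1qc UMIs, which mark macrophages, and its Cd79a, Cd79b and Ms4a1 UMIs, which mark B cells, each stayed under 0.1% of its total. The rule found 677 of 25200 barcodes, 445 of 11238 in the control library and 232 of 13962 in the library named PBM. The Cd3, Mki67, Top2a, C1q and B cell levels of the members, and their contrast with non-cycling T cells in cell cycle genes, were therefore fixed by the selection and are given as descriptions.

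Wild-type C57BL/6 mice received MC38 cells, a mouse colon carcinoma line, under the skin. Mice of the PBM group were treated daily from day 7, the controls are labelled only as control, and tumours of both groups were taken at day 14. PBM is read here as photobiomodulation, the exposure of tissue to light, although the labels give the abbreviation alone. CD45+ leukocytes were sorted, pooled within each condition and sequenced with a droplet method that captures the 3′ end of transcripts. The number of mice in a pool and the sex and age of the mice are not given in the sources used here. Each condition is 1 library, so no test across samples was possible, and treatment, pool and library cannot be told apart. All intervals below are exact 95% intervals that cover counting error only (Clopper-Pearson for shares, Poisson for summed levels, conditional binomial for ratios).

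A T cell that meets its antigen with costimulation leaves quiescence, passes the restriction point under D-type cyclins with Cdk4 and Cdk6, copies its DNA with the Mcm helicase and Pcna, and divides under Cdk1 with A- and B-type cyclins. In tumours, cycling CD8 T cells include effector cells that carry granzymes and perforin and progenitors that keep the transcription factor Tcf7. Regulatory T cells, defined by Foxp3, also divide in tumours, where Il2ra and members of the tumour necrosis factor receptor family such as Tnfrsf4 and Tnfrsf9 mark their activated state.

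The starts of 4 genes show the regulatory letters of the cell cycle genes used here. Genes of S phase are classically bound by E2F factors, and genes of G2 and mitosis by the MuvB complex at the cell cycle genes homology region (CHR), often beside CCAAT boxes bound by NF-Y. The windows are the 150 bases before the annotated start (RefSeq, GRCm38.p6, all on the minus strand), with Mcm6, a helicase subunit of S phase, at chr1:128359706-128359855, and the 2 marker genes of the rule, Mki67 at chr7:135716380-135716529 and Top2a at chr11:99024190-99024339. Cdk1, the kinase that drives mitosis, lies at chr10:69352913-69353062. Capitals mark TTTGGCGC (E2F type), TTTGAA (CHR) and CCAAT, each read on either strand.
Mcm6: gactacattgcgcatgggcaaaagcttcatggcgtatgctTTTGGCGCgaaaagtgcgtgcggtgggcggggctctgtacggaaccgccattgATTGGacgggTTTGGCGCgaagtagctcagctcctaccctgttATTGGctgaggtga
Mki67: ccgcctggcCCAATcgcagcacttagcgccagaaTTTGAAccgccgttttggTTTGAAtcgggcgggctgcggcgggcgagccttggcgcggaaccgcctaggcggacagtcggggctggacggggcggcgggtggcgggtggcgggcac
Top2a: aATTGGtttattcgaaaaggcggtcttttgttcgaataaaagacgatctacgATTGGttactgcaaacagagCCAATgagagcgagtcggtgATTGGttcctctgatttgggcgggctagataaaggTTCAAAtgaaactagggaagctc
Cdk1: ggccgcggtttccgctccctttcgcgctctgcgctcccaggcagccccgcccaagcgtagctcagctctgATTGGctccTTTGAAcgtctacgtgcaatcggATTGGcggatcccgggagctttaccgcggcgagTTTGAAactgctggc
The Mcm6 window held 2 E2F-type matches and no TTTGAA, and the windows of Mki67 and Cdk1 each held 2 TTTGAA matches and no E2F-type match. Each gene was counted once, as holding a match if any of its windows held it. Of the S phase list, 31 of 41 genes had a window, and 4 of them (12.9%: Dtl, Mcm5, Mcm6 and Pola1) held TTTGGCGC. Of the G2 and M list, 0 of 42 genes with a window held it. Of all 27025 genes with a RefSeq window, 83 (0.307%) held it. TTTGAA stood in 12 of 42 G2 and M genes (28.6%), in 5 of 31 S phase genes (16.1%) and in 10.5% of all genes with a window. CCAAT stood in 71.4%, 67.7% and 27.7%, respectively. A match is a description of the letters in these windows and no measurement of binding.

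By the Cd3 share, the T cell part of the label held for nearly all PBM members and for only about 1 in 2 control members. In the PBM library 218 of 232 members gave at least 0.06% of their UMIs to the Cd3 genes, and 195 gave at least 0.12%. In the control library the Cd3 share split into separate groups: 205 members (46.1%) were at or above 0.12%, and 180 (40.4%) were under 0.015%, with 60 between them. The members under 0.06%, called Cd3-low here, numbered 208 in control and 14 in PBM. The control Cd3-low members were large, with a median of 42474 UMIs per barcode and a median of 3 Cd3 UMIs. The 237 control members at or above 0.06%, called Cd3-rich, had a median of 11659 UMIs and 28 Cd3 UMIs, and the 218 PBM Cd3-rich members had 12521 and 23.

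**Figure D1:**
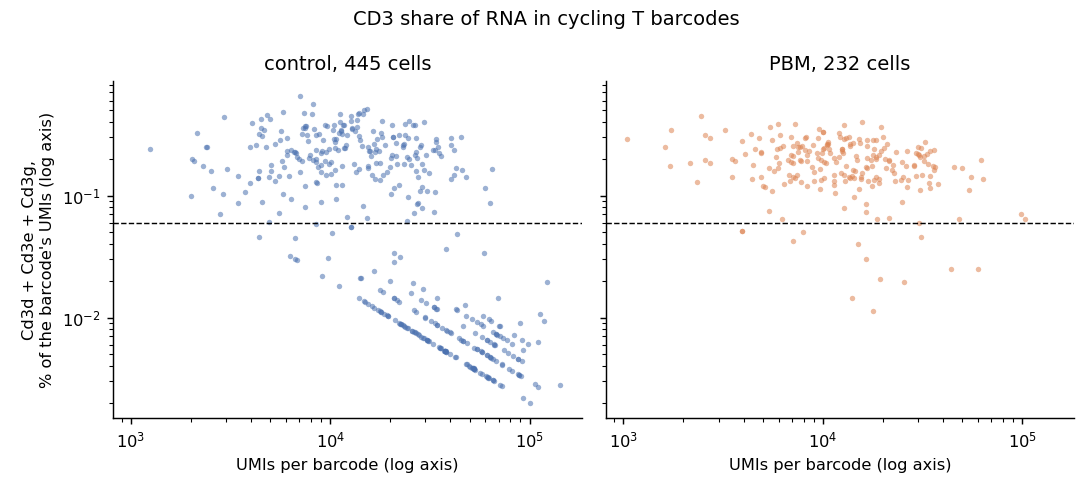
Cd3 share of UMIs (percent, log axis) against UMIs per barcode (log axis) for each cycling T cell (points), control left and PBM right, with a dashed line at 0.06%. The control library has a second group of deep barcodes under the line (208 of 445), and the PBM library has 14 of 232 under it.

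Levels are given as CPM, the summed UMIs of a gene per 1000000 summed UMIs of the same cells. Cd3-low control members carried less RNA of T cell genes outside the Cd3 genes and of the CD45 gene, and more of matrix genes. Cd3e stood at 21.5 CPM in them against 555 CPM in Cd3-rich control members, a difference that the split itself fixed. Ptprc, the gene of CD45, which the split did not use, stood at 82.5 against 557 CPM, and Pdcd1, an inhibitory receptor of T cells, at 2.16 against 152 CPM. Summed markers of other leukocytes did not all go that way. In Cd3-low against Cd3-rich control members, monocyte and macrophage markers summed to 2764 against 2170 CPM and natural killer markers to 1533 against 1192 CPM. Dendritic cell markers summed to 115 against 45.5 CPM, B cell markers to 1308 against 1318 CPM and plasma cell markers to 78.6 against 150 CPM. Sparc, a matrix protein gene, stood at 1081 against 45.5 CPM, and Tm4sf1, a membrane protein gene, at 422 CPM in the Cd3-low group. The 4 marker groups compared next were chosen after the values were seen, so their counts describe the split and are no independent support. The group of Sparc, Col1a2, Tm4sf1, Ankrd1 and Tnfrsf12a was largest in 148 of the 208 Cd3-low and 10 of the 237 Cd3-rich control members. Natural killer genes such as Ncr1 and Klrb1c were largest in 21 and 12. Macrophage genes such as Lyz2 and Csf1r were largest in 39 and 212, but their median share was alike, at 0.0554% and 0.0589% of UMIs, so they did not set the groups apart. These barcodes held 9717822 of the 13367568 UMIs of the control members, so sums over all members mostly describe them. Lineages and levels are therefore given for the Cd3-rich members, with values for all members beside the main results; the 0.06% floor was set after the values were seen.

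The border of the rule was not sharp, for the Cd3 genes in the control library and for the cycle genes in both libraries. Just inside, 90 control and 4 PBM members had exactly 2 Cd3 UMIs. Just outside, 144 control and 4 PBM barcodes met every other condition with 1 Cd3 UMI. For the cycle genes, 109 control and 71 PBM members had exactly 2 Mki67 and Top2a UMIs, and their S phase genes took a median of 10.8 and 5.98 per 10000 UMIs. T barcodes with 1 such UMI, 448 in control and 456 in PBM, had 6.43 and 5.73, against 31.3 and 34.7 in members with 10 or more. PBM members at the threshold therefore had S phase levels next to those of T barcodes with 1 or with 0 such UMIs (5.21 per 10000 for 0), and control members at the threshold lay between the barcodes outside it and the deeper members.

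Cycling T cells made up a larger share of T barcodes in the control library. Of all T barcodes, 445 of 3127 (14.2%, interval 13.0 to 15.5) cycled in control and 232 of 6762 (3.43%, 3.01 to 3.89) in PBM. Among Cd3-rich barcodes the shares were 9.31% (237 of 2546, 8.21 to 10.5) and 3.29% (218 of 6634, 2.87 to 3.74). A count of 2 UMIs is reached more easily in deeper barcodes, and T barcodes without Mki67 or Top2a UMIs had median depths of 4034 UMIs in control and 5873 in PBM among the Cd3-rich. Barcodes of at least 3000 UMIs were then thinned at random to 3000 before the rule was applied, and shallower barcodes were left out. T barcodes averaged 1757 in control and 5426 in PBM over 100 draws, against 3127 and 6762 without thinning. The shares were 5.68% in control and 1.72% in PBM as means of the 100 draws. The draws ran from 4.78% to 6.48% in control and from 1.42% to 1.99% in PBM. They thin the same barcodes, so their range covers the thinning alone. The counting intervals were 4.65 to 6.88 in control and 1.40 to 2.12 in PBM.

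All 3 lineages had members in both libraries, and the largest class in each was CD8. Cells were classed as Foxp3 where they carried a Foxp3 UMI, and otherwise by Cd8a or Cd8b1 (CD8), by Cd4, by both or by neither. In control, 129 of 237 Cd3-rich cycling cells were CD8 (54.4%, 47.9 to 60.9), 65 were Foxp3 (27.4%, 21.8 to 33.6) and 18 were CD4 without Foxp3 (7.59%, 4.56 to 11.7). In PBM, 91 of 218 were CD8 (41.7%, 35.1 to 48.6), 53 were Foxp3 (24.3%, 18.8 to 30.6) and 22 were CD4 (10.1%, 6.43 to 14.9). Cells with UMIs of both coreceptors took 12 (5.06%) and 39 (17.9%), and cells with neither took 13 in each library. The coreceptor genes did not move together: Cd8a stood at 427 CPM (406 to 449) in control and 176 CPM (163 to 191) in PBM, Cd8b1 at 477 CPM (455 to 499.7) and 489 CPM (466 to 513), and Cd4 at 65.2 CPM (57.2 to 74.0) and 75.1 CPM (66.4 to 84.8). Over all members, CD8 had 48.1% in control and 42.7% in PBM, Foxp3 20.2% and 23.3%, and neither 22.2% and 7.33%.

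At a fixed depth the CD8 shares of the 2 libraries lay closer together and the Foxp3 shares farther apart. After thinning to 3000 UMIs, with 13 control and 11 PBM Cd3-rich members left out as shallower, the expected CD8 share was 58.5% (51.7 to 65.0) in control and 50.7% (43.7 to 57.7) in PBM. Foxp3 took 18.8% (13.9 to 24.5) and 12.02% (7.97 to 17.3), and CD4 took 7.81% and 10.9%. The intervals of the 2 libraries overlapped for each of these 3 classes. Barcodes of other cell types without Cd3 UMIs gave a background that differed between the libraries, and its source was not tested. In PBM barcodes with B cell genes and no Cd3 UMI (1525 at this depth), 23.1% counted as CD8, 1.76% as CD4 and 1.01% as Foxp3. In control barcodes with C1q genes and no Cd3 UMI (1224), 5.46% counted as CD8, 1.07% as CD4 and 0.623% as Foxp3. In the 65 control barcodes with B cell genes and no Cd3 UMI, 4.99% counted as CD8, 0% as CD4 and 0.240% as Foxp3. The CD8 class and the class with both coreceptors in PBM therefore hold cells whose Cd8a or Cd8b1 UMI sits at a level also seen in B barcodes. The Foxp3 shares lay above this background in both libraries.

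In PBM, Foxp3 cells took a larger share of cycling than of non-cycling T cells. At 3000 UMIs, Foxp3 cells were 4.22% (3.69 to 4.79) of 5364 non-cycling Cd3-rich PBM cells against the 12.02% among cycling ones, and the intervals did not overlap. In control they were 14.6% (12.7 to 16.6) of 1290 non-cycling cells against 18.8% among cycling ones, with overlapping intervals. CD8 cells were 50.1% (47.3 to 52.8) of non-cycling control cells and 56.0% (54.6 to 57.3) of non-cycling PBM cells, and in each library the interval overlapped that of the cycling cells. CD4 cells were 10.9% and 13.1% of the non-cycling cells. Shallower non-cycling cells were left out, with 1290 of 1969 kept in control and 5364 of 5979 in PBM.

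Seen from within each lineage, CD8 cells cycled at a lower share in PBM and Foxp3 cells at a similar one. Among Cd3-rich CD8 barcodes, 129 of 1195 (10.8%, 9.09 to 12.7) cycled in control and 91 of 3404 (2.67%, 2.16 to 3.27) in PBM. Among CD4 barcodes the shares were 18 of 302 (5.96%, 3.57 to 9.26) and 22 of 901 (2.44%, 1.54 to 3.67). Among Foxp3 barcodes they were 65 of 486 (13.4%, 10.5 to 16.7) and 53 of 492 (10.8%, 8.17 to 13.9), and the intervals overlapped. With thinning to 3000 UMIs before the rule, the shares in control and PBM were 6.55% and 1.54% for CD8 and 7.34% and 5.11% for Foxp3. The draws ran from 4.71% to 10.4% and from 2.15% to 7.29% for Foxp3, and from 5.07% to 7.88% and from 1.15% to 1.98% for CD8. These ranges cover the thinning alone. The counting intervals overlapped for Foxp3 (4.53 to 11.1 and 2.61 to 8.57) and not for CD8 (4.98 to 8.38 and 1.12 to 2.03). Whether the 2 lineages differed in this respect was not tested.

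**Figure D2:**
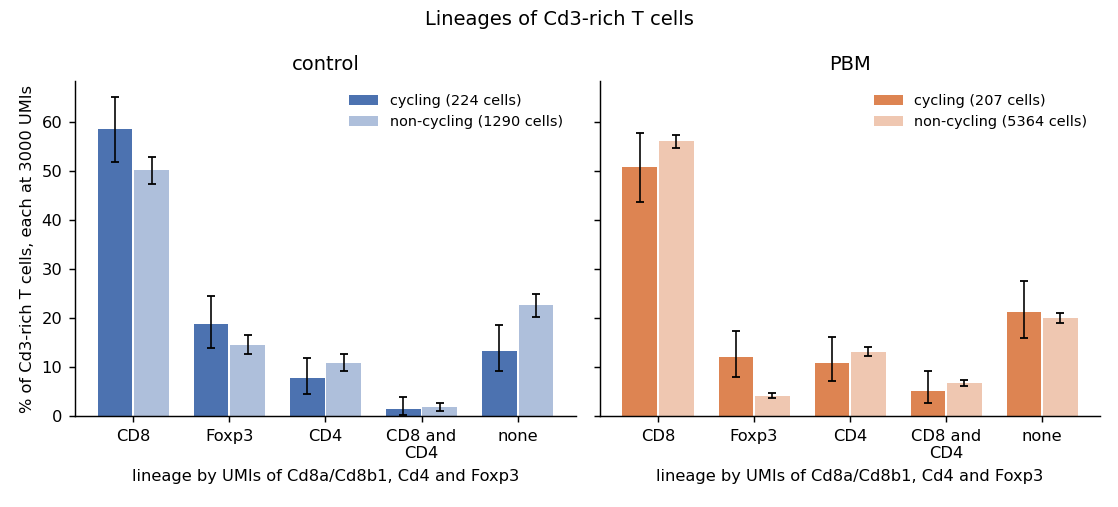
Share of each lineage (percent) among Cd3-rich T cells at 3000 UMIs per cell, control left and PBM right, with dark bars for cycling cells, pale bars for non-cycling cells and whiskers for exact 95% intervals of counting error. CD8 is the largest class in all 4 groups, and Foxp3 cells are 12.02% of cycling against 4.22% of non-cycling PBM cells.

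Mki67, Top2a and the genes of S phase and nucleotide synthesis stood at similar levels in the 2 libraries, while G2 and M genes leaned higher in PBM. The selection on Mki67 and Top2a bears on these levels. Mki67, a coat protein of mitotic chromosomes, stood at 316 CPM (298 to 335) in control and 339.7 CPM (321 to 359.5) in PBM, and Top2a, which untangles DNA, at 378 (358 to 399) and 392 CPM (372 to 414). A gene is counted as higher or lower below when its level differed at least 2-fold and the interval of the ratio excluded 1, among genes with at least 20 UMIs over both libraries. In Cd3-rich cycling cells 481 of 10457 genes (4.6%) were higher in PBM and 1192 (11.4%) lower, and the median log2 ratio of all tested genes was −0.08. Of 41 S phase genes none was higher or lower, with a median log2 ratio of −0.02. Pcna, the clamp of the replicative polymerases, stood at 193 CPM in control and 199 CPM in PBM. Of 24 genes of nucleotide synthesis, which supply DNA precursors, none was higher or lower (median 0.09). Among 50 genes of G2 and M the median was 0.27, against 0.39 over all members, and 1 (Psrc1, a spindle protein gene) was higher, at 9.07 against 3.29 CPM.

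Cells of the 2 libraries stood at different places between S phase and mitosis by their median sums. In Cd3-rich members, S phase genes took a median of 23.2 per 10000 UMIs in control and 23.0 in PBM, while G2 and M genes took 39.4 and 70.8. The middle 50% of cells ran from 17.6 to 93.2 in control and from 23.6 to 118 in PBM, so the cells overlapped widely. Foxp3 cells had medians of 35.2 in control and 104 in PBM for G2 and M genes, and CD8 cells 46.7 and 62.4. In Foxp3 cells alone 7 of 49 G2 and M genes were higher in PBM, where 337 of 7730 genes (4.36%) were higher. They included Ube2c, an enzyme of the anaphase-promoting complex (190.1 against 510.3 CPM), Ccna2, cyclin A2 (75.3 against 188 CPM), and Plk1, a mitotic kinase (81.7 against 169 CPM). In CD8 cells, where 448 of 8904 genes (5.03%) were higher and 1173 (13.2%) lower, 0 of 49 were higher or lower. Median depth of the Foxp3 members was 10092 UMIs in control and 18387 in PBM, and its part in these values was not tested.

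**Figure D3:**
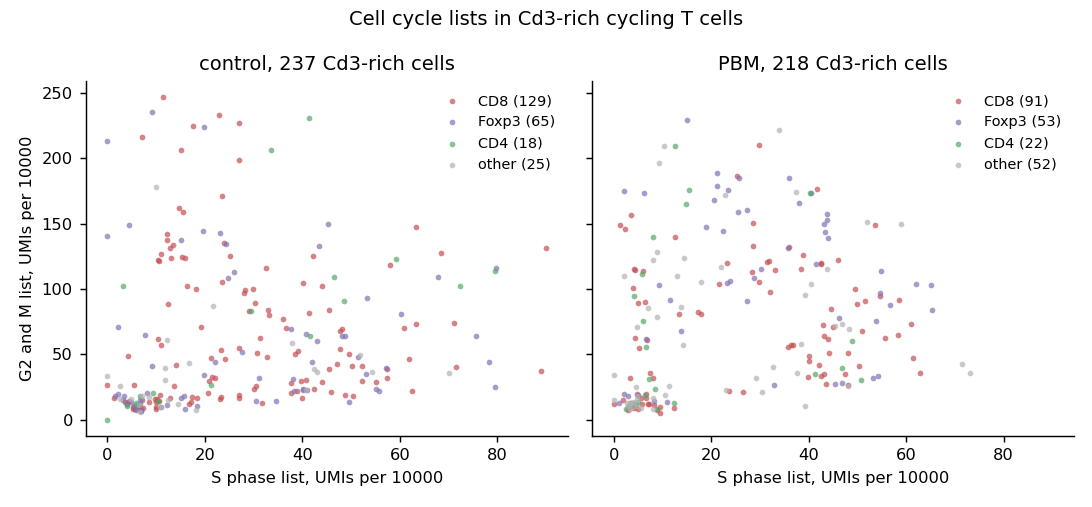
Summed UMIs of the G2 and M list against those of the S phase list, both per 10000 UMIs, for each Cd3-rich cycling T cell (points coloured by lineage), control left and PBM right. The cells of the 2 libraries overlap widely, with G2 and M medians of 39.4 in control and 70.8 in PBM and S phase medians of 23.2 and 23.0.

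Among regulators of the cell cycle, genes of entry and genes of exit are given apart. Of 17 tested genes of entry, 2 were lower in PBM and none higher, a share near the 11.4% of all genes. Cdk6, a partner of D-type cyclins, stood at 149.6 CPM (137 to 163) in control and 51.3 CPM (44.1 to 59.4) in PBM, and Ccnd1, cyclin D1, at 34.8 and 1.42 CPM with 127 and 5 UMIs. Of 18 tested inhibitors and quiescence genes, 5 were higher in PBM (Klf2, Foxo1, Foxo3, Pik3ip1 and Trp53inp1) and 3 lower (Cdkn1a, Klf4 and Klf6). Klf2, a factor that maintains T cell quiescence, stood at 66.6 CPM in control and 305 CPM in PBM, a log2 ratio of 2.20 (1.99 to 2.40). Cdkn1a, the p21 inhibitor of cyclin-dependent kinases, stood at 83.0 and 18.4 CPM, a log2 ratio of −2.17 (−2.58 to −1.78).

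Killing and effector genes had the lowest median of the functional lists. Of 28 genes of cytotoxicity and effector function, 24 were lower in PBM and 1, Gzmm, was higher, with a median log2 ratio of −2.60. Gzmb, granzyme B, stood at 1064 CPM (1031 to 1098) in control and 102 CPM (91.3 to 113) in PBM, a log2 ratio of −3.39 (−3.55 to −3.23). Prf1, the pore-forming perforin, stood at 334 CPM (316 to 354) and 40.3 CPM (33.9 to 47.5). Ifng, interferon gamma, stood at 146 CPM (134 to 159) and 9.64 CPM (6.68 to 13.5). Gzmm, granzyme M, went the other way, at 4.38 CPM (2.51 to 7.12) and 25.2 CPM (20.3 to 31.1). At 3000 UMIs per cell, 60.7% of control members (54.0 to 67.2) and 9.68% of PBM members (6.00 to 14.5) had a Gzmb UMI. The share was 8.31% in control barcodes with C1q genes and no Cd3, and 1.40% in PBM barcodes with B cell genes and no Cd3.

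Over all members the same list had 16 of 28 genes lower and 1 higher (median −1.31), where 2943 of 12906 genes (22.8%) were lower and 1163 (9.01%) higher, with a median of −0.16. The difference was also present in cells without Mki67 or Top2a UMIs. There 26 of 28 effector genes were lower in PBM (median −3.83), among 2444 of 13595 genes (18%) lower and 702 (5.16%) higher. Gzmb stood at 754 and 22.1 CPM in non-cycling Cd3-rich cells, and Ifng at 424 and 3.03 CPM. The list median thus lay closer to 0 in cycling than in non-cycling cells of the same libraries.

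Inhibitory receptors followed the effector genes. Of 23 tested genes of checkpoint and exhaustion, 15 were lower in PBM and 2 higher (Cd200 and Eomes), with a median of −1.58 against −0.06 over all members. Pdcd1, the receptor PD-1, stood at 152 CPM (139 to 165) in control and 16.2 CPM (12.2 to 20.9) in PBM. Lag3, an inhibitory receptor for class II molecules, stood at 76.7 and 6.52 CPM, and Havcr2, TIM-3, at 80.3 and 7.66 CPM. Tox, a factor of exhausted T cells, was not in the lower group, with 50.7 CPM (43.6 to 58.5) in control and 78.5 CPM (69.6 to 88.4) in PBM. Among 23 genes of activation and costimulation 10 were lower and 2 higher (Cd40lg and Tnfsf8), with Tnfrsf9, the costimulator 4-1BB, at 632 and 57.3 CPM.

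Genes of naive, memory and stem-like T cells ran opposite. Of 23 genes 14 were higher in PBM and 1, the homing receptor gene Ccr9, was lower, with a median of 1.15. Tcf7, the factor TCF-1 of naive cells and progenitors, stood at 27.4 CPM (22.3 to 33.3) in control and 314 CPM (296 to 333) in PBM, a log2 ratio of 3.52 (3.22 to 3.83). Lef1, its relative, stood at 26.6 and 202 CPM, and the lymph node homing gene Ccr7 at 23.3 and 134 CPM. Id3, an inhibitor of E proteins, had 12 UMIs in control (3.29 CPM) and 468 in PBM (133 CPM). Il7r, the interleukin-7 receptor, did not pass, with 64.4 and 74.3 CPM. At 3000 UMIs 8.22% of control members (4.83 to 12.4) and 54.1% of PBM members (47.1 to 61.0) had a Tcf7 UMI, while 14.4% of PBM B cell barcodes without Cd3 had one.

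Cycling CD8 cells alone showed the same contrast. Of 27 tested effector genes 23 were lower and 1 higher (median −2.69), and of 22 naive and stem-like genes 16 were higher and 1 lower (median 1.82). Gzmb stood at 1089.8 CPM (1046 to 1135) in control and 31.8 CPM (23.1 to 42.7) in PBM, and Pdcd1 at 213 CPM (193 to 233) and 7.23 CPM (3.47 to 13.3). Tcf7 stood at 28.2 CPM (21.5 to 36.4) and 393 CPM (361 to 428). Mki67, a gene of the rule, stood at 325 CPM (301 to 349.9) and 301 CPM (272 to 331) in these cells. The selection bears on that likeness, which therefore does not show that the cells divided alike.

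Of 20 regulatory T cell genes 9 were lower in PBM and 2 higher over the Cd3-rich cycling cells (median −0.96), while over all members 3 were lower and 5 higher (median 0.10). Among cycling Foxp3 cells the regulatory genes split. Ikzf2, the factor Helios, stood at 519 CPM (477 to 563) in control and 497 CPM (456 to 541) in PBM, and Foxp3, which defined the class, at 387 and 216 CPM. Of 19 tested genes of the regulatory programme 9 were lower in PBM and none higher, with a median of −1.04, where 680 of 7730 genes (8.8%) were lower. Il2ra, the high-affinity interleukin-2 receptor chain, stood at 734 CPM (684 to 786) and 132 CPM (111 to 156). Tnfrsf4, the costimulator OX40, stood at 1117 and 382 CPM, Ctla4 at 632 and 211 CPM, and Il10, an inhibitory cytokine, at 66.1 and 5.59 CPM. Gzmb was abundant in these cells too, at 1188 CPM (1124 to 1255) in control and 241 CPM (213 to 272) in PBM. Tcf7 stood at 9.18 and 133 CPM. Among PBM cycling cells, Gzmb thus stood at a higher CPM in the Foxp3 class (241 CPM) than in the CD8 class (31.8 CPM), and in control the 2 classes were near each other. The Foxp3 class takes cells from 1 Foxp3 UMI, and 50 control and 36 PBM members had at least 2. Median depths of the class were 10092 UMIs in control and 18387 in PBM. The part of depth and of cells with 1 Foxp3 UMI in these levels was not tested.

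**Figure D4:**
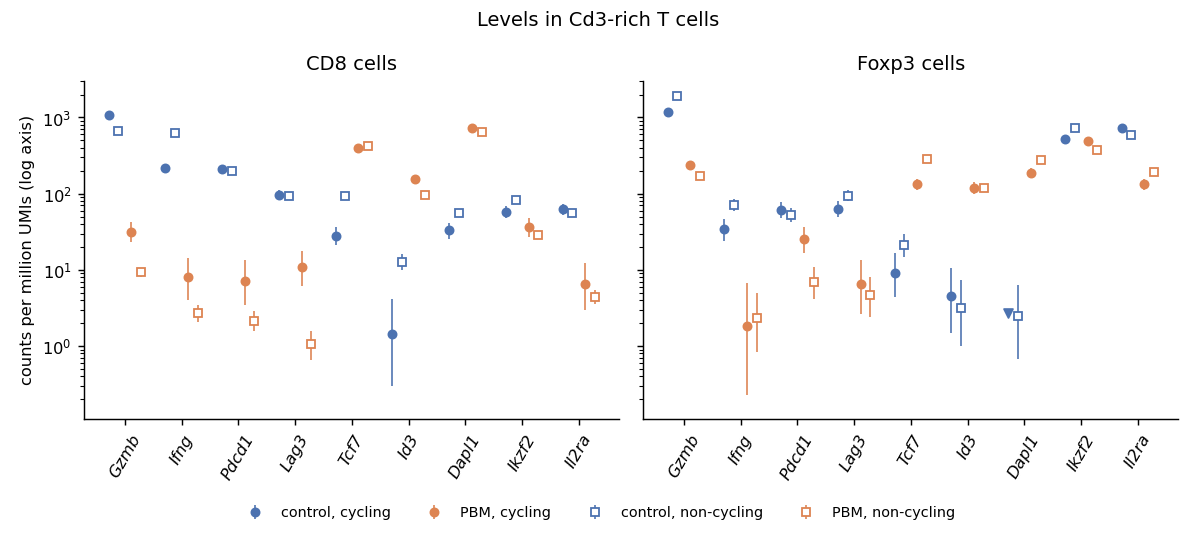
Levels (CPM, log axis) of 9 genes in Cd3-rich CD8 cells (left) and Foxp3 cells (right), with filled circles for cycling cells, open squares for non-cycling cells, blue for control and orange for PBM, and whiskers for exact Poisson 95% intervals. A triangle stands at the floor of 3 UMIs for a gene at 0; in cycling CD8 cells Gzmb lies at 1089.8 CPM in control and 31.8 CPM in PBM, and Tcf7 at 28.2 and 393 CPM.

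Genes of glycolysis, cholesterol synthesis and hypoxia had medians below that of all genes in PBM. Of 18 glycolysis genes 14 were lower in PBM and none higher (median −1.28), among them Slc16a3, which exports lactate, at 89.6 and 6.52 CPM, Hk2, the first glycolytic kinase, at 45.8 and 4.54 CPM and Ldha, lactate dehydrogenase, at 1322 and 626 CPM. Of 18 cholesterol synthesis genes 11 were lower and none higher (median −1.37), such as Hmgcs1, an early enzyme, at 54.5 and 17.6 CPM. Of 12 tested hypoxia genes 9 were lower (median −1.32), including Bnip3, a mitophagy receptor gene, at 59.2 and 9.64 CPM. Of 18 apoptosis genes 4 were lower (Bcl2l1, Bcl2l11, Bcl2a1b and Bcl2a1d), and of 16 tested DNA damage and p53 genes 3 were lower and 1 higher.

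Part of the interferon-response genes were higher in PBM. Of 21 tested genes of the type I interferon response 10 were higher and none lower, with a median of 0.97. Ifit3, an antiviral RNA-binding protein gene, stood at 5.48 CPM (3.35 to 8.46) in control and 27.5 CPM (22.3 to 33.6) in PBM, Irf7 at 20.0 and 44.2 CPM and Rtp4 at 13.4 and 46.5 CPM. Isg15, a ubiquitin-like modifier gene, did not reach 2-fold, at 58.1 and 94.4 CPM. T cell receptor signalling genes were close to level, with 1 of 22 (Sh2d1a) higher and a median of 0.03, whereas over all members 21 of 22 were higher with a median of 1.53. That change between member sets goes with the Cd3-low control barcodes. The list holds Cd3d, Cd3e and Cd3g, which the rule and the Cd3-rich floor used, so its values are partly fixed by the selection.

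**Figure D5:**
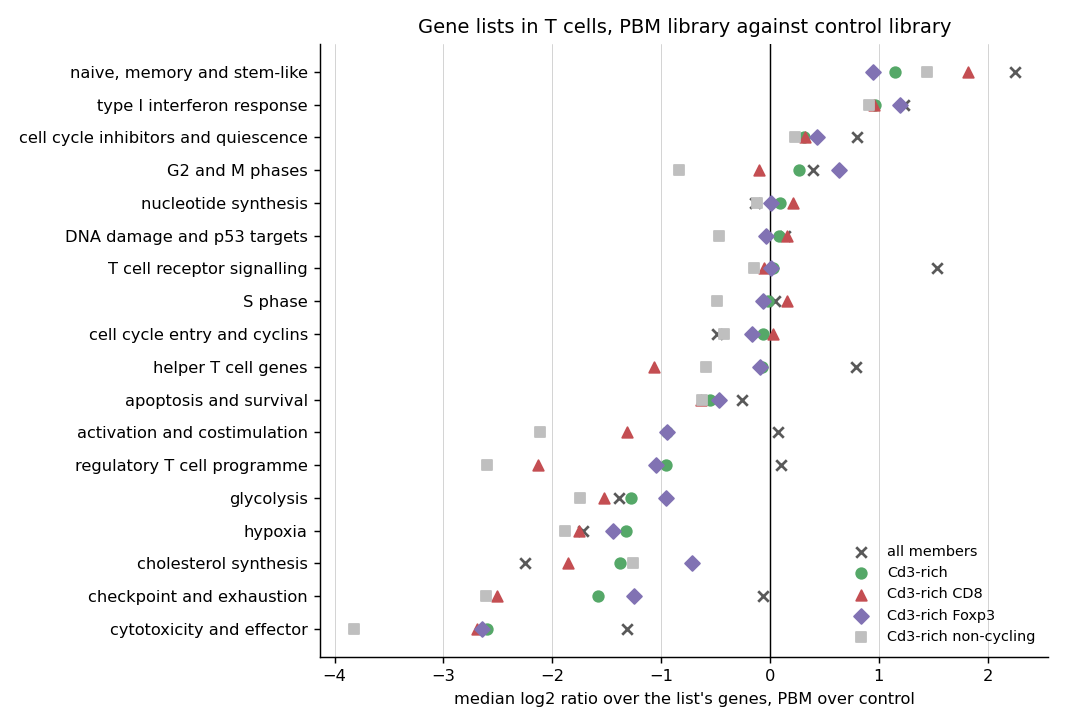
Median log2 ratio of PBM to control over the tested genes of each list, with 1 symbol each for all members, Cd3-rich members, their CD8 and Foxp3 cells, and Cd3-rich non-cycling cells. In Cd3-rich members cytotoxicity (−2.60) and checkpoint (−1.58) genes lie lowest, naive and stem-like (1.15) and interferon response (0.97) genes highest, and S phase genes (−0.02) near 0.

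Ranked over all eligible genes, the largest ratios held members of these lists beside genes outside them, such as Nsg2 and Klf3 in PBM and Nrgn and Sv2c in control. Higher in PBM, in order, stood Id3, A630014C17Rik, Dapl1, Nsg2, Tcf7, Klf3, Ifi27l2a, Gm45837, Slamf6, Itm2a, Arl5c and Sidt1. Dapl1, which marks naive CD8 cells, stood at 20.5 and 427 CPM, Ifi27l2a, an interferon-induced gene, at 458 and 2473 CPM, and Slamf6, a receptor of progenitor T cells, at 27.4 and 142 CPM. Higher in control stood Ccl1, Gzmf, Nrgn, Gzme, Rgs16, Sv2c, Csf1, Ccl3, Klrc1, Ccl4, Il12rb2 and Ifng. Ccl1, a chemokine gene, stood at 204 CPM (743 UMIs) in control and 0.567 CPM (2 UMIs) in PBM, and Gzmf, a granzyme gene, at 430 and 1.99 CPM. Gzme had 227 UMIs in control and 0 in PBM, which with a floor of 3 UMIs over the PBM members makes it at least 73.1-fold higher in control. The granzyme genes Gzmc to Gzmg lie in 1 cluster of near copies, so their single values are uncertain where reads were shared.

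Within each library, cycling cells were set against Cd3-rich T cells with no Mki67 or Top2a UMI. The rule used this contrast, so the counts are a description. In control 704 of 11856 genes (5.94%) were higher in cycling cells and 402 (3.39%) lower, and in PBM 1235 of 12815 (9.64%) and 330 (2.58%). Cell cycle genes led in both libraries, with 47 of 50 G2 and M genes higher in each and medians of 3.74 and 5.33. Cdk1 stood at 6.41 CPM in non-cycling and 105 CPM in cycling control cells, and at 1.78 and 123 CPM in PBM. Myb, a factor of dividing progenitors, was higher in cycling cells of both, by 1.83 and 1.37 on the log2 scale.

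Outside the cell cycle the 2 libraries gave different lists. In control 0 of 28 effector genes were higher in cycling cells and 7 were lower, among them Ifng (424 CPM in non-cycling, 146 CPM in cycling cells), Ccl5 (3559 and 1035 CPM) and Ccl4 (2403 and 747 CPM). In PBM 8 of 24 tested effector genes were higher in cycling cells and none lower, with Gzmb at 22.1 and 102 CPM and Ifng at 3.03 and 9.64 CPM. Checkpoint genes were higher in 9 of 24 in PBM, such as Pdcd1 (4.25 and 16.2 CPM) and Lag3 (1.48 and 6.52 CPM), and in 0 of 24 in control, where Pdcd1 stood at 137 and 152 CPM. Regulatory genes were higher in 11 of 20 in PBM, with Ikzf2 at 57.6 and 199.9 CPM and Klrg1, a receptor of differentiated cells, at 3.13 and 43.7 CPM. In control none of 20 was higher and 3 were lower. The 2 contrasts share no cells, and the difference between them was not tested. They also mix lineages: Foxp3 cells were 24.3% of cycling and 6.71% of non-cycling Cd3-rich cells in PBM. In control they were 27.4% and 16.9%. The part of this mix in the regulatory, checkpoint and effector values was not tested.

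Among CD8 cells alone, Gzmb and Lag3 remained higher in cycling cells of PBM, where 900 of 11554 genes (7.79%) were higher. The Gzmb level of these cycling cells rested on 44 UMIs, and counts over the lists are not given for this contrast. In PBM CD8 cells Gzmb stood at 9.32 CPM in non-cycling and 31.8 CPM in cycling cells (log2 ratio 1.77, 1.27 to 2.25) and Lag3 at 1.05 and 10.8 CPM (3.37, 2.32 to 4.37). Tcf7 stood at 429 and 393 CPM there. In control CD8 cells Tcf7 stood at 93.9 CPM in non-cycling and 28.2 CPM in cycling cells (−1.73, −2.15 to −1.34). Cycling CD8 cells of PBM thus kept Tcf7 near the level of their non-cycling neighbours, and those of control lay below theirs.

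Receptor beta chain segments were read in few cells. Of Cd3-rich cycling cells, 58 in control and 62 in PBM had UMIs of exactly 1 Trbv gene. Trbv12-2 was the most frequent in control, in 12 of 58 (20.7%, 11.2 to 33.4), and in 92 of 299 non-cycling cells (30.8%, 25.6 to 36.3). In PBM Trbv2 led, in 11 of 62 (17.7%, 9.2 to 29.5), with 121 of 1401 (8.64%, 7.22 to 10.2) among non-cycling cells. Among control CD8 cells Trbv12-2 was in 11 of 35 cycling (31.4%, 16.9 to 49.3) and 58 of 163 non-cycling cells (35.6%, 28.3 to 43.4). Each pair of intervals of cycling and non-cycling cells overlapped, and segments with similar sequence can share reads.

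RNA of other cell types moved with the library. In Cd3-rich cycling cells 15 monocyte and macrophage markers summed to 2170 CPM in control and 198 CPM in PBM, with none and 3 of them at 0, and to 2424 and 294 CPM in non-cycling cells. The 14 B cell markers summed to 1318 CPM in control and 3289 CPM in PBM, and to 1061 and 3298 CPM in non-cycling cells. The 10 natural killer markers, some of which T cells also express, summed to 1192 and 198 CPM. At 3000 UMIs 81.0% of control members and 4.51% of PBM members had a Lyz2 UMI, against 82.6% and 3.59% of non-cycling cells. The macrophage sum was thus lower in cycling than in non-cycling cells of both libraries, and the B cell sum was higher in cycling cells of control and alike in PBM; the part of this RNA in the differences between libraries was not tested. The immature thymocyte list, with Rag1 and Rag2 absent from the features common to both libraries, summed to 158 and 193 CPM. The libraries held 104673228 and 86159897 UMIs, with median depths of 5622 and 5144 per barcode. A total of 1991 barcode names occurred in both, but they are running names and not nucleotide sequences, so shared cells could not be read from them.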

How the data were processed

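The authors deposited 1 matrix of UMI counts per library, not normalized, with 26394 genes in control and 23277 in PBM, of which 22483 were common. Reads were processed with Cell Ranger 7.2.0 on mm10, per the submitters' processing notes, and the count matrices name PISA 0.12, per the file headers. Which of these made the counts, and whether intronic reads were counted, is not given in the sources used here.

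Members were found by the rule and their counts summed per library (scanpy 1.11.5, numpy 2.4.6, scipy 1.17.1 under python 3.11.15; plots with matplotlib 3.10.9). The members and gene lists were chosen with earlier results of these data known. The 0.06% Cd3 floor, its alternatives and the 4 marker groups of the Cd3-low members were added after seeing the data. Ratios compare CPM of genes with at least 20 UMIs, and were tested on simulated data. A gene at 0 in 1 library was set to a floor of 3 UMIs over that library's cells, and this entered the medians. Ranked genes were the 12 with the largest ratio in each direction among those with at least 100 UMIs, at least 50 CPM in the higher library, intervals that did not overlap, and a level there at or above that of the whole library. Receptor segments and ribosomal, mitochondrial, Xist and Y-linked genes were left out of that ranking. Shares after thinning are expectations of random thinning, or means of 100 draws where thinning came before the rule. Barcodes shallower than the stated depth were left out of them. Scrublet called 109 control (0.970%) and 880 PBM barcodes (6.30%) doublets, of which 7 and 2 were members; they were kept, and leaving them out was an alternative. No member exceeded 10% mitochondrial UMIs. The edgeR package (version 4.0.16, R 4.3.3) served only for alternative scaling factors. Other alternatives were other UMI minimums and ceilings, other depths and cell means in place of sums.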

Additional observations from a re-analysis of the deposited data

How the results depend on the processing

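No paired analysis was possible because each condition is 1 library. Of the main values recomputed, 223 stayed near the reported value, meaning inside its counting interval for a share and within 1.5 times for a count of genes, and 103 did not; those 103 follow, shares as percentages, first for all members in control and then in PBM, and the causes were not tested. The share that cycles stayed higher in control than in PBM for T barcodes, CD8 and CD4 under every alternative run for it, and for Foxp3 under all but 2: thinning to 1000 UMIs, and lineage genes from 2 UMIs in Cd3-rich cells (14.1 and 14.3). Which library had the larger CD8 or Foxp3 share of cycling cells turned under several alternatives over all members, and for Foxp3 in Cd3-rich cells from 3 Mki67 and Top2a UMIs (25.6 and 28.4). With Mki67 and Top2a from 1 UMI, the cycling share of T barcodes was 28.6 and 10.2, of CD8 29.2 and 9.55, of CD4 23.0 and 9.24 and of Foxp3 35.5 and 18.6; CD4 took 8.29 of control and Foxp3 13.5 of PBM cycling cells. The median log2 ratio of G2 and M genes over all members, 0.39 as reported, changed sign there to −0.041. From 3 UMIs, the cycling shares were 10.7 and 2.38 of T barcodes, 12.5 and 2.11 for CD8, 4.66 and 1.10 for CD4 and 11.8 for Foxp3 in control. In Cd3-rich cells they were 6.44 and 2.23 of T barcodes, 8.37 and 1.91 for CD8, 2.98 and 1.11 for CD4 and 8.64 for Foxp3 in control, where CD8 took 61.0 of the cycling cells. With ceilings of 0.05%, the control share was 15.8.

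With thinning to 1000 UMIs before the rule, the cycling shares were 1.44 and 0.568 of T barcodes, 1.66 and 0.453 for CD8, 1.13 and 0.459 for CD4 and 1.41 and 1.78 for Foxp3, while Foxp3 took 10.1 and 8.43 of cycling cells and CD8 32.9 in PBM. At 2000 UMIs they were 3.81 and 1.21 of T barcodes, 4.24 and 1.04 for CD8, 2.87 and 0.813 for CD4 and 4.47 and 3.93 for Foxp3, which took 16.4 and 12.1 of cycling cells, with CD4 at 8.05 in control. At 3000 UMIs they were 5.68 and 1.72 of T barcodes, 6.55 and 1.54 for CD8, 4.39 and 1.23 for CD4 and 7.34 and 5.11 for Foxp3. CD8 then took 57.3 and 49.5 of cycling cells, Foxp3 20.1 and 13.1, and CD4 8.07 in control. Thinned after the rule, Cd3-rich Foxp3 shares were 18.8 and 12.02, and CD8 took 50.7 in PBM.

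With lineage genes from 2 UMIs, CD8 took 40.9 and 51.7 of all cycling cells and 51.4 of Cd3-rich ones in PBM. Foxp3 took 12.8 and 15.5, or 21.1 and 16.5 in Cd3-rich cells. The PBM cycling share was then 3.49 for CD8 and 14.2 for Foxp3, or 3.29 and 14.3 in Cd3-rich cells.

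A Cd3 floor of 0.03%, 0.06% or 0.12% gave control cycling shares of 9.40, 9.31 and 8.91 of T barcodes, 10.7, 10.8 and 10.9 for CD8, and, at 0.06% and 0.12%, 13.4 and 11.8 for Foxp3. Foxp3 took 27.9, 27.4 and 25.4 of control cycling cells, and CD8 54.4 and 59.0 at the last 2 floors. Genes higher in PBM numbered 470, 481 and 542, and genes lower 1269, 1192 and 1022, against 1163 and 2943 over all members. Several list medians changed sign. Medians of the Cd3-rich lists kept their sign except S phase, at −0.14 to 0.07; over all members S phase ran from −0.32 to 0.32 and regulatory genes from −0.99 to 0.14. Shallow cells limit lineage calls: a gene at a few UMIs per cell is missed in many.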
